A study of Mus musculus with 55 samples.

Results

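The Iroquois homeobox genes Irx1, Irx2, Irx3, Irx4, Irx5 and Irx6 were taken by name from the counts of bulk islet RNA-seq, and all 6 were found among the 47937 genes counted. All 6 also passed the filter on low counts, which kept 18685 genes of the wild-type and βEedKO libraries. Irx4, Irx5 and Irx6 passed it only through their reads in βEedKO islets of 25 weeks. Reads per gene were counted in 16 libraries from hand-picked islets of male C57B6/J mice. The groups at 8 weeks were wild type (WT, 3 libraries), Eed heterozygous (HET, 3) and βEedKO (KO, Eed -/- in the labels, 3), and at 25 weeks WT (3), HET (2) and KO (2). Eed is a core subunit of Polycomb repressive complex 2 (PRC2), the enzyme that places H3K27me3. Its floxed alleles were removed by an Ins2-cre (RIP-cre) transgene, which acts in β cells, so the other cells of the islet were not targeted. Whether WT and HET mice carried Cre was not given in the sources used here. Most libraries were made from 1 to 2 animals and the KO libraries of 25 weeks from at least 4. The study reports that KO mice were glucose tolerant at the younger age and that all were overtly diabetic at the older one. In KO against WT of the older age, loss of Eed and diabetes therefore cannot be told apart.

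Irx genes encode homeodomain transcription factors of the TALE class. They lie in the genome in 2 clusters of 3 genes, Irx1, Irx2 and Irx4 on one chromosome and Irx3, Irx5 and Irx6 on another, and pattern neural tissue, heart, limb and retina in the embryo. In the pancreas, Irx1 and Irx2 are known as genes of the glucagon-producing α cell lineage. The Irx clusters are known Polycomb targets in many cell types.

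In GRCm38 the first cluster lay on chromosome 13, with Irx1 (ENSMUSG00000060969.8) at chr13:71957921-71963723 on the minus strand, Irx2 (ENSMUSG00000001504.10) at chr13:72628820-72634198 on the plus strand and Irx4 (ENSMUSG00000021604.15) at chr13:73260479-73269608 on the plus strand. The second lay on chromosome 8, with Irx3 (ENSMUSG00000031734.12) at chr8:91798525-91802067 on the minus strand, Irx5 (ENSMUSG00000031737.10) at chr8:92357625-92376286 and Irx6 (ENSMUSG00000031738.14) at chr8:92674288-92680956, both on the plus strand. The gaps between neighbouring members were wide, 665.1 and 626.3 kb on chromosome 13 and 555.6 and 298.0 kb on chromosome 8.

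RefSeq promoters on GRCm38.p6, from 250 bases before to 50 bases after the start, were at hand for 3 of the 6 members. They are shown because the chromatin of WT islets was read at these places, and their CpG dinucleotides are in capitals, since CpG-rich promoters are the usual seats of bivalent chromatin. The window of Irx2 spans chr13:72628570-72628869 on the plus strand, that of Irx4 spans chr13:73260247-73260546 on the plus strand and that of Irx3 spans chr8:91801605-91801904 on the minus strand.
Irx2: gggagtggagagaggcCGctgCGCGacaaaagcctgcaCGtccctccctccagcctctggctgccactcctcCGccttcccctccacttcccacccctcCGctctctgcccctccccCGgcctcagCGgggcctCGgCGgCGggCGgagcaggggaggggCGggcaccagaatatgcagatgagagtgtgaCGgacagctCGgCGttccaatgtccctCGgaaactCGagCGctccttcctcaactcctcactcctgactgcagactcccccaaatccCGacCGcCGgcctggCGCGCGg
Irx4: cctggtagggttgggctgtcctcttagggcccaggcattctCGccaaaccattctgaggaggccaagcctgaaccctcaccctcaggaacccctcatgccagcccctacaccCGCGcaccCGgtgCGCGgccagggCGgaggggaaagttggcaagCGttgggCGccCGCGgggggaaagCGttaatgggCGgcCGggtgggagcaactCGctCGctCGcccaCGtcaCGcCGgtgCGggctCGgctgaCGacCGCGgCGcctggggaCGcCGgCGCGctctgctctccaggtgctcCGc
Irx3: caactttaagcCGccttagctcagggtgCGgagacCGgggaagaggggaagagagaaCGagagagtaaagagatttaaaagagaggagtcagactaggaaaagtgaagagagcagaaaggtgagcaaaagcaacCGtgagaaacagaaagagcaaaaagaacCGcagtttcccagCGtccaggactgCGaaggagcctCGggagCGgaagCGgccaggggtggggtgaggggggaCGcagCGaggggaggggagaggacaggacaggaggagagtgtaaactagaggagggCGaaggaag
The Irx2 window held 25 CpG and the Irx4 window 31, against a median of 7 over 32851 mouse promoters of the same length (quartiles 3 and 20). As many CpG or more were found in 18.4% and 10.6% of all promoters, respectively. The Irx3 window held 14 CpG, a number reached by 36.3% of promoters, and its RefSeq start lay 413 bases inside the longest Gencode transcript of the gene. The whole Irx2 and Irx3 windows lay in chromatin state L and the whole Irx4 window in state M.

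These states come from the segmentation of WT islet chromatin, in which each 200 bp bin of the autosomes carries 1 of 24 letters and no measured level. The study reads L as bivalent chromatin with more H3K4me3, M as bivalent chromatin with more H3K27me3, and N and O as Polycomb-repressed, while A to J are active. Bivalent means that the activating mark H3K4me3 and the repressive mark H3K27me3 are found together. The ChIP-seq was made on whole islets, so both marks in 1 cell and each mark in different cells cannot be told apart. The start sites of Irx1, Irx2, Irx3 and Irx5 were in state L, and those of Irx4 and Irx6 in state M. Past the start, state M filled most of each gene, from 69.9% of Irx3 to 100% of Irx4. When every annotated transcript start was read, Irx1 and Irx2 had starts in both L and M, while the starts of Irx3 and Irx5 stayed in L and those of Irx4 and Irx6 in M.

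The bivalent and Polycomb chromatin reached past the genes. The unbroken run of states K to P (bivalent to weakly Polycomb-repressed) around the start was 38.6 kb at Irx1, 21.6 kb at Irx2, 22.4 kb at Irx4, 27.2 kb at Irx3, 51.8 kb at Irx5 and 44.0 kb at Irx6. Over the 5127 genes whose start is in L or M the median run was 12.2 kb (quartiles 4.2 and 24.2), and a run as long as the member's was found at 28.7% of them for Irx2, 27.4% for Irx4, 21.1% for Irx3, 12.7% for Irx1, 10.3% for Irx6 and 7.16% for Irx5. The runs of Irx2 and Irx4 were thus within the quartiles. The 2 clusters differed from each other. Between the outer ends of Irx3 and Irx6, over 882.4 kb, states L to O covered 92.8% of the sequence and active states 0%. Between the outer ends of Irx1 and Irx4, over 1312 kb, states L to O covered 54.9% and active states 2.26%. Over the whole segmentation L to O covered 20.4% and active states 20.3%.

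**Figure D1:**
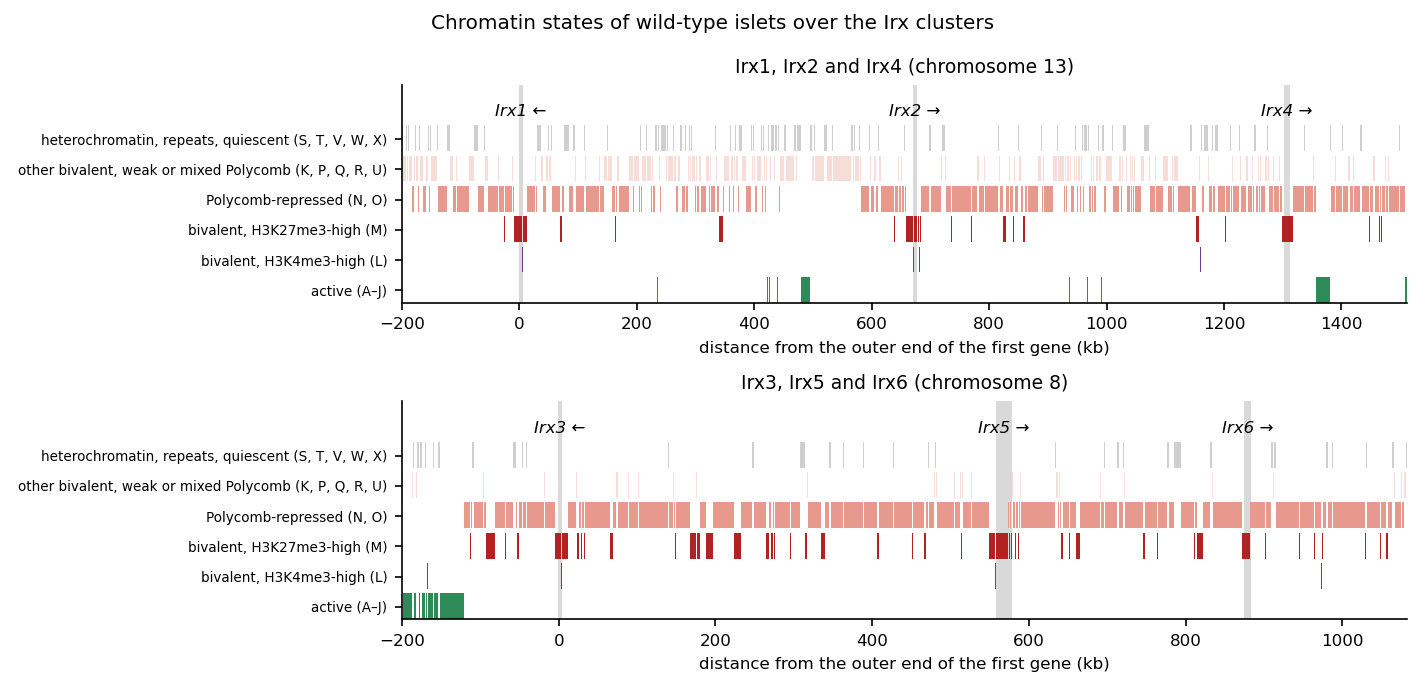
Chromatin states of WT islets over both clusters, drawn against the distance in kb from the outer end of the first gene (Irx1 above, Irx3 below), with 1 row for each class of states and grey bands for the genes. State M surrounds each gene and Polycomb-repressed states fill most of the space between Irx3 and Irx6, 76.4% of it in state N, while the space between Irx1 and Irx4 is broken up, with 34.7% in state N.

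The total count per library ranged from 4645393, in WT replicate 2 of 25 weeks, to 22925359. Levels are given as CPM, counts scaled to the library total after TMM adjustment, and 3 reads amounted to 0.121 to 0.654 CPM depending on the library. Both KO libraries of 25 weeks stood apart: their TMM factors over all libraries were 0.76 and 1.498, against 0.836 to 1.12 in the others. In them Ins1, an insulin gene, was at 2143 and 2999 CPM, against 26820 to 47390 in WT of that age, and Gcg, the glucagon gene, at 11900 and 11350 against 7656 to 8843. Eed itself, in whole islets, was at 13.4 to 14.9 CPM in KO and 23.9 to 33.1 in WT at 8 weeks, and at 14.3 to 15.6 against 19.3 to 28.3 at 25 weeks. In bulk RNA a change in the number of cells of a type and a change in the RNA per cell cannot be told apart. P-values measure the spread between these libraries.

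In WT islets 2 members were clearly transcribed, 1 was low but had reads in every library and 3 were silent or nearly so. Per kb of exon, WT islets of 8 weeks had 4.65 ± 1.40 CPM of Irx2 (SD, n = 3), 2.54 ± 0.334 of Irx1 and 0.292 ± 0.150 of Irx3. The single libraries ran from 3.03 to 5.56 for Irx2 and from 2.20 to 2.87 for Irx1, next to each other without overlap, and Irx3 lay well below both. Over these 3 libraries together Irx5 had 1 read and Irx4 and Irx6 had 0, which allows up to 0.0579 CPM for a gene at 0. So all members had start sites in states read as bivalent in whole islets, but those that gave RNA were among the 4 in state L. Whether both marks lay in the cells that gave this RNA was not tested.

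At 25 weeks of age, 3 of the 6 members were higher in KO islets than in WT (edgeR quasi-likelihood test, adjusted p under 0.05 over all genes), where 4.58% of the 18685 genes tested were called higher. They were Irx1, Irx2 and Irx5, and none was lower. Diabetes comes with the KO genotype at this age, and its part in these values was not tested. The other members, Irx3, Irx4 and Irx6, did not pass. All 6 nevertheless had both KO libraries above all 3 WT libraries, a pattern shared by 24.7% of genes. Irx4, Irx5 and Irx6 entered the test only through these KO libraries, so for them neither the pattern nor a call is independent of the filter. By start site, 3 of the 4 members in state L were called, against 13.9% of the 2512 genes tested with a start in L, and 0 of the 2 in state M, against 27.1% of 902. The median log2 fold change over all genes was 0.03. DESeq2 also called 3 members.

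Irx2, the most abundant member, had 51, 100 and 67 reads in the WT libraries of 25 weeks, or 11.1, 7.53 and 5.18 CPM. In the KO libraries it had 429 and 846 reads, or 32.6 and 34.1 CPM. The KO values were close to each other and about 3 times the highest WT value. The fitted log2 fold change was 2.04 ± 0.38 (SE), with an adjusted p of 0.0109.

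Irx1, its neighbour and partner in α cells, had 7, 46 and 28 reads in WT, or 1.53, 3.46 and 2.17 CPM. In KO it had 109 and 315 reads, or 8.29 and 12.7 CPM. The groups did not overlap, and the log2 fold change was 2.05 ± 0.37 (adjusted p = 0.00954). Irx1 and Irx2 thus rose by nearly the same fitted factor. Irx1 made up 20.3% and 27.1% of the reads of the pair in KO, and 12.1%, 31.5% and 29.5% in WT. The 12.1% rests on 7 reads of Irx1 in the shallowest library (95% counting interval 4.99% to 23.3%). Both KO shares were below those of the other 2 WT libraries, so an unchanged balance is not shown.

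Irx5, a gene of the heart, retina and skeleton, had 0, 0 and 1 read in WT and 17 and 58 reads in KO. The KO reads gave 1.29 and 2.34 CPM, a level that no other library reached, the next being 0.444 CPM in HET replicate 2 of 8 weeks. From the summed reads the ratio of KO to WT was 60.9, with a 95% counting interval of 10.6 to 2440, since only 1 read stands on the WT side. The fitted log2 fold change was 5.48 ± 1.24 (adjusted p = 0.0277).

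Irx4, a gene of the heart ventricle, had 0, 1 and 0 reads in WT and 11 and 15 in KO, a ratio of 21.1 (counting interval 3.47 to 866). Its log2 fold change was 4.15 ± 1.45, and it did not pass the test (adjusted p = 0.145). Irx6, a gene of retinal bipolar cells, had 0 reads in all 14 libraries outside this group and 15 and 12 reads in KO, at least 7.31-fold higher than WT against a floor of 3 reads over the group. Its adjusted p was 0.142. In both genes the KO libraries lay above every other library, with 26 and 27 reads in all, and the fit across genes did not call them.

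Irx3, known for its long-range contacts with the Fto locus, had 3, 9 and 12 reads in WT and 16 and 97 in KO, or 0.654, 0.677 and 0.928 CPM against 1.22 and 3.92. The KO libraries differed from each other by more than the lower one differed from WT. The log2 fold change was 1.69 ± 0.87 (adjusted p = 0.313). Irx3 shares its place with Irx3os, a gene on the opposite strand, and the library kit does not mark strand, so reads of the pair cannot be told apart where they overlap. Irx3os itself was counted at 0 or 1 read per library.

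**Figure D2:**
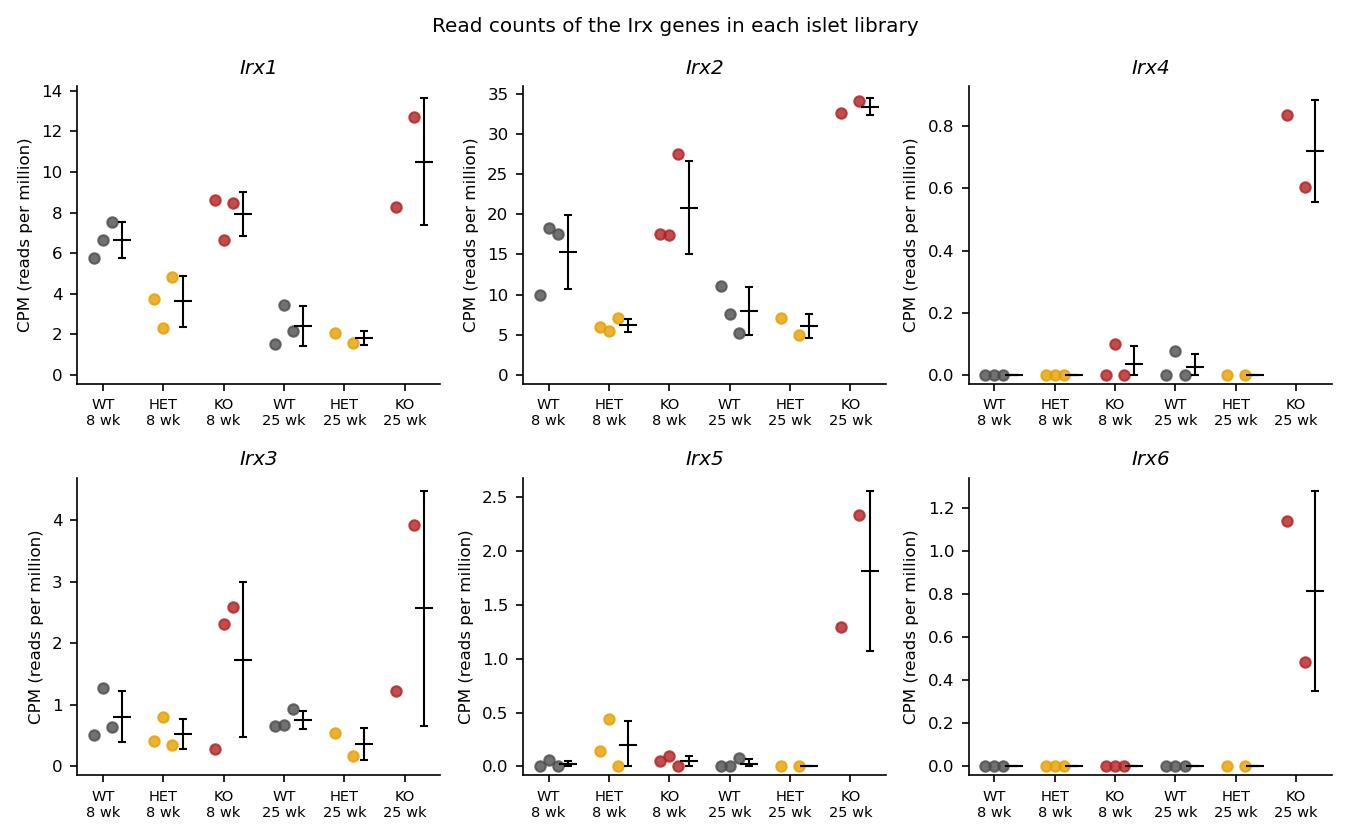
Level of each Irx gene (CPM, linear axis from 0) in each of the 16 libraries, by genotype and age, with the group mean and SD in black (the lower bar stops at 0). Both KO libraries of 25 weeks lie above all WT libraries of that age in each panel, and for Irx4, Irx5 and Irx6 above all 14 other libraries.

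Per kb of exon the KO islets of 25 weeks had 10.2 ± 0.325 CPM of Irx2 (SD, n = 2), 4.01 ± 1.19 of Irx1, 0.929 ± 0.691 of Irx3, 0.581 ± 0.237 of Irx5, 0.277 ± 0.0628 of Irx4 and 0.241 ± 0.138 of Irx6. Irx2 and Irx1 were separated by more than their spread. Irx3 and Irx5 were not, nor were Irx4 and Irx6. All 6 members were read at once in these 2 libraries, while the other libraries had reads of 3 to 5 members. The members that came up from near 0 thus stayed well below Irx1 and Irx2 in level, although their ratios to WT were larger.

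The calls rested on few libraries. Without KO replicate 3 none of the 5 members still tested was called, and for Irx1 the fitted value fell to 1.71 (adjusted p = 0.0969), and without KO replicate 2 only Irx1 was called, again of 5 tested. Without WT replicate 3 only Irx1 was called, without WT replicate 4 only Irx2, and without WT replicate 2 Irx1 and Irx2. With the replicate number as a block, Irx1 and Irx2 were called and Irx5 was not (log2 fold change 7.97, adjusted p = 0.137). With the heterozygous libraries added to the controls 4 were called, Irx4 among them (log2 fold change 4.97, adjusted p = 0.0186).

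At 8 weeks no member was called between KO and WT, where 0.434% of genes were called in either direction. By edgeR 0 members had an unadjusted p under 0.05 and DESeq2 called 0. With the libraries of 8 weeks alone, only 3 of the 6 members could be tested. Irx2 was at 9.96, 18.3 and 17.6 CPM in WT and 17.6, 17.4 and 27.5 CPM in KO, and the groups overlapped (log2 fold change 0.44 ± 0.34, adjusted p = 0.85). Irx1 was at 5.77, 6.63 and 7.52 CPM in WT and 8.63, 6.67 and 8.48 CPM in KO (log2 fold change 0.25 ± 0.33, adjusted p = 0.941). Irx3 was at 0.507, 1.28 and 0.636 CPM in WT and 0.285, 2.31 and 2.60 CPM in KO (log2 fold change 1.08 ± 0.78, adjusted p = 0.832). For Irx3, KO replicate 1 was below all WT libraries and the other 2 KO libraries were above them. A set of 6 interferon-induced genes summed to 30.8 CPM in KO replicate 1 and to 2820 and 3320 CPM in the other 2. In WT replicates 1, 3 and 4 the set summed to 34.4, 1940 and 1970 CPM. Its part in the values of 8 weeks was not tested. Irx4 had 2 reads in the 3 KO libraries together, Irx5 had 3 and Irx6 had 0. The level that Irx4, Irx5 and Irx6 showed in KO at 25 weeks was thus not seen at 8 weeks.

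The difference of the KO effect between the ages was tested as such, and 0 members were called, against 0.198% of all genes. By edgeR 2 members, Irx1 and Irx2, had an unadjusted p under 0.05, and DESeq2 called 1, Irx1. The effect on Irx1 was larger at 25 weeks by 1.79 ± 0.49 on the log2 scale (adjusted p = 0.255) and that on Irx2 by 1.60 ± 0.51 (adjusted p = 0.374). For Irx4, Irx5 and Irx6 the WT libraries held too few reads for this term to be read. KO mice were diabetic only at the older age, and the part of diabetes in this term was not tested.

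Within KO, 0 members were called between 25 and 8 weeks, with 1.5% of all genes called in either direction. By edgeR 3 members had an unadjusted p under 0.05 (Irx4, Irx5 and Irx6), and DESeq2 called 1, Irx5. From the reads, Irx5 was 34.7 times higher at 25 weeks (counting interval 11.4 to 172, adjusted p = 0.0614 by edgeR), Irx4 was 18.0 times higher (4.51 to 157, adjusted p = 0.213), and Irx6 at least 12.5-fold higher (adjusted p = 0.195). Irx1 changed by 0.36 ± 0.36 and Irx2 by 0.63 ± 0.37 on the log2 scale, with adjusted p of 0.686 and 0.474. The interferon-induced genes summed to 35.1 and 66.6 CPM in KO at 25 weeks, and to 2820 and 3320 CPM in KO replicates 4 and 5 of 8 weeks. Their part in this comparison was not tested, nor was that of diabetes, which differs between the ages in KO mice.

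Within WT no member was called between the ages. All 3 WT libraries of 25 weeks were below the 3 of 8 weeks for Irx1 (log2 fold change -1.44 ± 0.34, adjusted p = 0.455), a pattern shared by 8.95% of genes, and for Irx2 the ages overlapped (log2 fold change -0.97 ± 0.35, adjusted p = 0.489). By edgeR these were the 2 members with an unadjusted p under 0.05 and 0 were called, as were 0% of all genes, of which 1898 had an unadjusted p under 0.05. DESeq2 called 1 member, Irx1, and 143 genes. The α cell list had a median of -1.08 between the same ages, with 0 of 7 genes called, and the interferon list of -4.21, with 0 of 6 called and 2 of the 3 WT libraries of 8 weeks at 1940 and 1970 CPM against 25.5 to 38.2 CPM at 25 weeks. Their part in the values of Irx1 and Irx2 was not tested. Irx1 at 8.29 and 12.7 CPM in KO compares with 5.77 to 7.52 CPM in young WT islets.

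In HET islets of 8 weeks, Irx2 was at 5.99, 5.50 and 7.09 CPM, below all WT libraries of that age, and Irx1 was at 3.76, 2.31 and 4.82 CPM, also below all WT libraries. All HET values below all WT values were found for 9.09% of genes. The log2 fold changes were -1.30 ± 0.31 for Irx2 (adjusted p = 0.215) and -0.88 ± 0.34 for Irx1 (adjusted p = 0.289). Irx5 had 2, 10 and 0 reads in HET against 0, 1 and 0 in WT (log2 fold change 2.99 ± 1.35, adjusted p = 0.333), and 1.51 without HET replicate 2. By edgeR 0 members were called, as were 0% of the 18828 genes tested with all 16 libraries. Unadjusted p under 0.05 was found for 3 members (Irx1, Irx2 and Irx5) and 2743 genes, and DESeq2 called 1 member, Irx2, and 400 genes.

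One WT library weighed on this comparison. Without WT replicate 1 of 8 weeks, Irx2 was called (log2 fold change -1.60, adjusted p = 0.0292), and so were 601 genes. The summed level of 6 interferon-induced genes was 34.4 CPM in that library, 1940 and 1970 CPM in the other 2 WT libraries and 15.8 to 21.0 CPM in HET. In the same WT library Irx2 was at 9.96 CPM, nearest to HET. The part of this difference between libraries in the Irx2 result was not tested.

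In HET islets of 25 weeks, Irx2 was at 7.14 and 5.02 CPM and Irx1 at 2.07 and 1.57 CPM, overlapping with WT. Irx3 had 10 and 3 reads, or 0.545 and 0.175 CPM, below all WT libraries (log2 fold change -1.06 ± 0.91, adjusted p = 1). Irx4, Irx5 and Irx6 had 0 reads. By edgeR 0 members and 0% of genes were called, with 0 members and 210 genes at an unadjusted p under 0.05, and DESeq2 called 0 members and 2 genes.

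**Figure D3:**
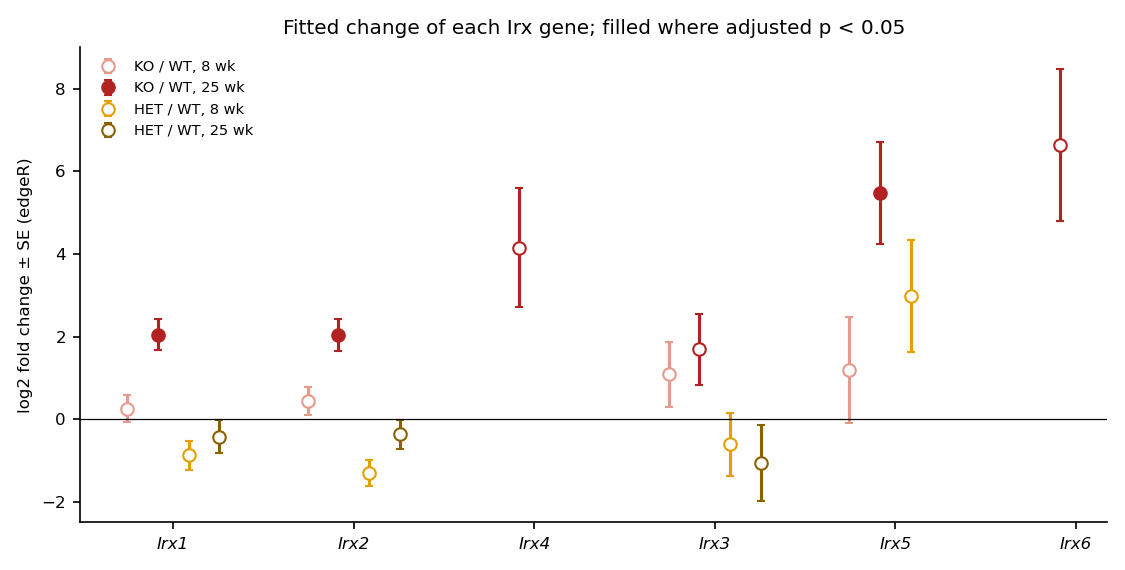
Fitted log2 fold change and SE (edgeR) of each Irx gene for KO and HET against WT at both ages, filled where the adjusted p was under 0.05 and left out where both groups together had 3 reads or fewer. The 3 filled points are Irx1, Irx2 and Irx5 at 25 weeks in KO, and the fitted values of genes with 0 or 1 WT read, Irx4, Irx5 and Irx6, depend on the prior count.

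Irx1 and Irx2 were then set beside other genes of the α cell. In WT of 8 weeks the libraries with more Gcg (25670 and 29790 CPM, against 11670) also had more Irx2 and Irx1. They were also the WT libraries with 1940 and 1970 CPM of the interferon-induced genes. The HET libraries of that age, with 7657 to 9537 CPM of Gcg, had less Irx2 and Irx1. The order did not hold in every group. KO replicate 1 of 8 weeks had the least Gcg of its group (12350 CPM) and the most Irx1 (8.63 CPM). WT replicate 2 of 25 weeks had the least Gcg of its group (7656 CPM) and the most Irx2 (11.1 CPM). In KO islets of 25 weeks Irx1 and Irx2 were called and Gcg was not, being 0.44 ± 0.60 higher on the log2 scale (adjusted p = 0.754). The difference between the genes was not tested.

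Of 7 α cell genes listed, 2 rose and 1 fell in KO at 25 weeks, with a median log2 fold change of 0.44, and their summed level was 12200 to 12800 CPM in KO and 8600 to 9800 in WT. Gcg made up most of this sum, averaging 11630 CPM in KO and 8241 in WT. The median was also the value of Gcg, so neither figure adds to that gene. The 2 that rose, named after their values were seen, were Gc, which encodes vitamin D binding protein (1.99 ± 0.37, adjusted p = 0.0107), and Pou3f4, a POU homeobox gene (5.02 ± 1.02, adjusted p = 0.0168). The one that fell was Slc7a2, a cationic amino acid transporter gene, from 375 ± 95.9 CPM in WT to 97.2 ± 12.1 in KO (adjusted p = 0.0399), so the list did not move as a whole. β cell genes moved the other way, 7 of 8 falling with a median of -3.56, and Mafa was at 5.25 and 10.3 CPM in KO against 54.5 to 131 in WT. Other lists also moved at 25 weeks, with 3 of 6 duct genes (median 2.58) and 4 of 7 mesenchymal genes (median 1.84) higher, and 1 of 4 macrophage genes and 1 of 2 tested neural ectoderm genes. None was called among 4 delta, 2 PP, 5 acinar, 5 endothelial, 4 Schwann and 6 interferon-induced genes, although the summed acinar level was 7890 CPM in 1 KO library and 238000 CPM in the other.

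**Figure D4:**
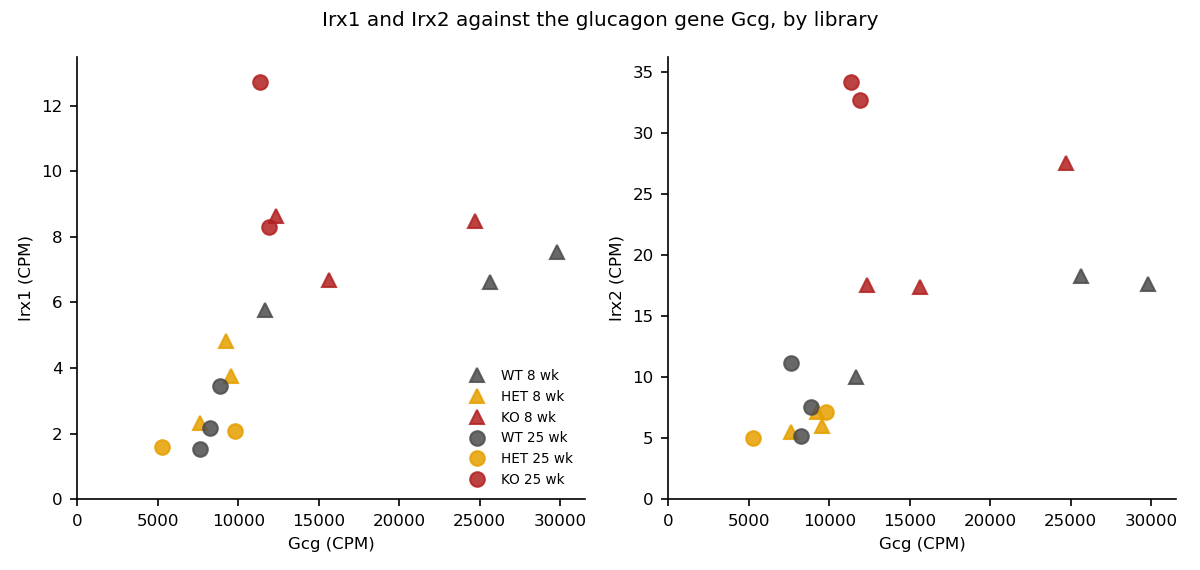
Irx1 (left) and Irx2 (right) against Gcg in CPM, 1 point per library, by genotype (colour) and age (triangles 8 weeks, circles 25 weeks). The KO libraries of 25 weeks have more Irx2, 32.6 and 34.1 CPM, than the WT libraries of 8 weeks with 25670 and 29790 CPM of Gcg.

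The mesenchymal list was set beside Irx5, a member near 0 in WT, though other lists also rose in KO at 25 weeks. The duct list summed to 575 to 653 CPM in KO against 257 to 310 in WT. The neural ectoderm list summed to 5.25 to 12.1 CPM against at most 0.0774. The mesenchymal list summed to 370 and 247 CPM in the KO libraries of 25 weeks and to 88.0 to 124 CPM in WT. Irx5 was at 1.29 and 2.34 CPM (17 and 58 reads) in these KO libraries, so the library with more of the list had less Irx5. HET replicate 2 of 8 weeks, with 10 reads of Irx5, had 211 CPM, against 54.3 and 57.4 in the other HET libraries of that age. KO replicates 1 and 4 of 8 weeks had 162 and 146 CPM, with 1 and 2 reads of Irx5. The part of mesenchymal or other cells in the reads of Irx5 was not tested.

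The other TALE homeobox genes, among them the Meis, Pbx and Tgif families, did not move as a group. Of 12 measured, 1 rose and 1 fell in KO at 25 weeks, with a median log2 fold change of -0.04 beside 0.03 over all genes. Pknox2, a partner of Pbx proteins whose start is in state M, rose from 0.712 ± 0.617 CPM in WT to 27.2 ± 1.53 in KO (log2 fold change 5.01 ± 0.76, adjusted p = 0.00403). Pbx3, in state L, fell from 45.7 ± 2.82 to 21.3 ± 3.62 CPM (-1.15 ± 0.29, adjusted p = 0.0427), a call lost under 10 of 19 alternatives. Mkx, the mohawk gene of tendon and the TALE gene nearest to the Irx class, had 13.2 ± 1.91 CPM in KO and 2.71 ± 0.578 in WT but did not pass (2.22 ± 0.73, adjusted p = 0.106). At 8 weeks 0 of the 12 were called. The abundant Meis and Pbx genes, most with start sites in active states, included none that rose.

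The genes around the Irx genes were read next. Within 1 Mb of a member on chromosome 13, 28 other genes were counted and 19 tested, of which 2 rose and 1 fell in KO at 25 weeks. On chromosome 8, 31 were counted and 13 tested, of which 1 rose and 0 fell. Within 100 kb 4 of 9 counted genes could be tested and 2 rose, and both lie head to head with a member that rose. Gm20554, a lincRNA gene at chr13:72626213-72628564 on the minus strand, starts 256 bases from the start of Irx2, in state L. It had 9 reads in the 3 WT libraries and 85 in the 2 KO libraries, or 0.324 ± 0.153 and 2.22 ± 0.121 CPM (log2 fold change 2.76 ± 0.69, adjusted p = 0.0404). Crnde, a long noncoding RNA gene at chr8:92326033-92356120 on the minus strand, starts 1.505 kb from the start of Irx5, also in state L. It had 2 reads in WT and 57 in KO, or 0.0509 ± 0.0441 and 1.53 ± 0.102 CPM (4.39 ± 0.84, adjusted p = 0.0123).

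Crnde differed from Irx5 at 8 weeks. It already had 48 reads in the KO libraries of that age, 1.01 ± 0.490 CPM, against 6 in WT (log2 fold change 3.04 ± 0.70, adjusted p = 0.125), when Irx5 had 3 reads. The difference between the 2 genes was not tested. With the replicate block the adjusted p at 25 weeks was 0.137 for Gm20554 and 0.0825 for Crnde, and under 12 of 19 alternatives Gm20554 was no longer called.

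The nearest protein-coding neighbours were not called. Ndufs6 and Mrpl36, the nearest to Irx4 with start sites in active chromatin, had log2 fold changes of -0.16 and -0.43. Beside the other cluster, in genes named after their values were seen, Fto, 130.1 kb from Irx3, was at 0.08 ± 0.18, Mmp2, 146.3 kb from Irx6, at 1.71 ± 0.55 (adjusted p = 0.0987), and Lpcat2, 174.4 kb from Irx6, at 2.03 ± 0.74 (adjusted p = 0.146). Farther off, Slc6a3, the dopamine transporter gene, 267.1 kb from Irx4 and with its start in state L, had 0 reads in WT and 64 in KO (adjusted p = 0.0225), and 18 reads in KO at 8 weeks. Slc6a19os, 430.2 kb from Irx4 and antisense to the amino acid transporter gene Slc6a19, fell by 4.18 ± 0.93 on the log2 scale (adjusted p = 0.0255), and without strand its reads cannot be told from those of Slc6a19 where the 2 overlap.

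**Figure D5:**
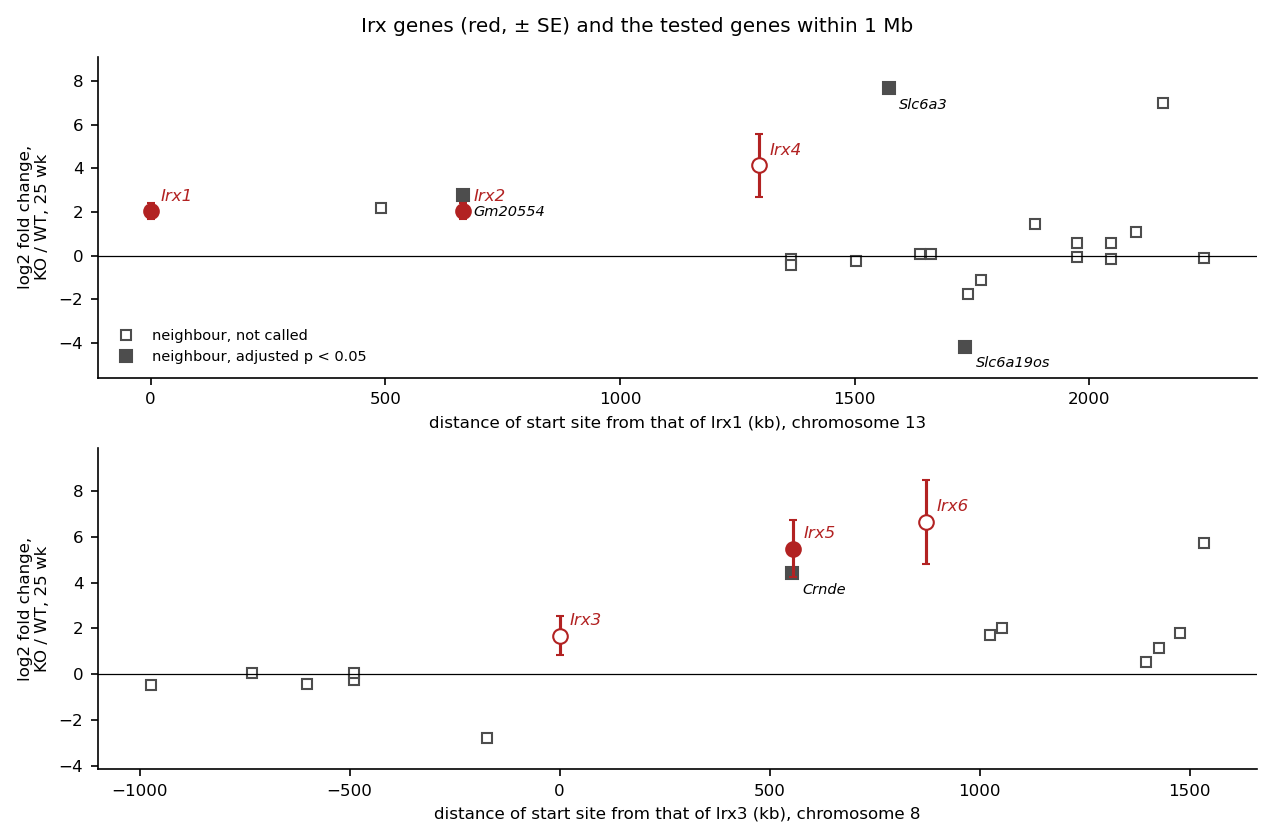
Fitted log2 fold change of KO against WT at 25 weeks for the Irx genes (red circles, with SE) and the tested genes within 1 Mb (squares) on chromosomes 13 (above) and 8 (below), by distance of the start sites in kb, filled where the adjusted p was under 0.05. Gm20554 sits at Irx2 and Crnde at Irx5, both filled.

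Across the 16 libraries the members fell into those that vary in every group and those that appear in KO at 25 weeks. Pearson correlation of log2 CPM was 0.837 between Irx1 and Irx2 (n = 16 libraries), 0.954 between Irx4 and Irx6, 0.851 between Irx5 and Irx6 and 0.848 between Irx4 and Irx5. Irx3 correlated at most at 0.682, with Irx2. The correlations among Irx4, Irx5 and Irx6 are set by the 2 KO libraries of 25 weeks, since the other libraries are at or near 0. All values share these libraries and their scaling.

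The genes whose pattern over the 16 libraries was most like a member's, by Pearson correlation of log2 CPM, were listed as the first 3 for each. For Irx1 they were Gata6, an endoderm and heart GATA factor (0.928), Smarca1 (0.915) and Shisal1 (0.906). For Irx2 they were Gpsm2, a spindle orientation gene (0.961), Nudt10 (0.958) and Ppp2r2b (0.948). For Irx3 they were Tgif1, another TALE homeobox gene (0.91), Cbln2 (0.909) and Pxdc1 (0.894). Gpsm2, for instance, averaged 10.7 CPM in WT and 5.20 in HET at 8 weeks. At 25 weeks it averaged 6.21 in WT and 16.1 in KO, the same order as Irx2. All these genes were picked by this correlation, so a shared pattern follows from the choice.

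For the members that were near 0 in WT, the first 3 genes were picked in the same way. For Irx4 they were Dlx4 (0.991), Gm14204 (0.988) and Ferd3l (0.979), at or near 0 outside KO of 25 weeks. For Irx6 they were Hoxd12, Lhx4 and Gm27199, which like Irx6 had no read in the other groups. For Irx5 they were the T-box gene Tbx5 (0.945) and the Hox genes Hoxc6 (0.933) and Hoxc5 (0.929). In HET of 8 weeks Tbx5, Hoxc6 and Hoxc5 averaged 0.606, 0.458 and 0.794 CPM, where Irx5 averaged 0.194. Tbx5 and Hoxc6 reached 10.5 and 9.55 CPM in KO at 25 weeks, several times Irx5 at 1.82 ± 0.741. By Spearman correlation only 2 of the 18 names were found again, Dlx4 for Irx4 and Hoxd12 for Irx6, so the names depend on the measure.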

How the data were processed

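Islet RNA was sequenced in 16 libraries, and chromatin states were mapped in WT islets. The counts are unnormalised whole numbers of reads for each gene, which the authors deposited after alignment and counting with TopHat2 2.0.13 and featureCounts (Subread 1.5.0-p1) on GRCm38 and Gencode M9 gene models. Use of strand in counting was not given in the sources used here. The segmentation was deposited as state letters of EpicSeg, with no measured level. Names, positions and start sites came from Gencode M21, which held 47224 of 47937 counted identifiers. The other samples of the series were not used here. No count column was left unused (0).

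All fits ran in R 4.3.3, the main one with edgeR 4.0.16 (TMM, filterByExpr by group, quasi-likelihood test, Benjamini-Hochberg adjustment over all tested genes, called under 0.05) and DESeq2 1.42.0 as an alternative. WT and KO were fitted in 1 model of 11 libraries and 4 groups (18685 genes), HET in 1 of all 16 libraries (18828 genes). The standard error is the absolute log2 fold change over the square root of F. Low counts were compared as ratios of summed reads with 95% exact intervals, which cover counting error only, as does the floor of 3 reads. Level correlations used log2 CPM with a prior count of 2. The common biological coefficient of variation was 0.456. Other scalings, filters, tests, controls, a replicate block and leaving out each library were tried.

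Deviations of same-numbered WT and KO libraries from the means of their groups were correlated over 18828 genes (0.457 and 0.163 for replicates 1 and 4 at 8 weeks, 0.176 and 0.255 for replicates 2 and 3 at 25 weeks). Blocked values are therefore given where a call changed. Differently numbered libraries were not compared, so a link by number is not shown. With 2 KO libraries at 25 weeks, their deviations mirror each other, and the values of that age are not independent. The labels do not say what the numbers mark. For HET and WT the correlations were 0.161, 0.08 and 0.0923.

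Named genes are the 6 members, the 3 genes most like each, the TALE list, called genes within 1 Mb or any within 100 kb, Eed, and Gcg, Ins1 and Mafa of the marker lists. A marker gene of this rule is left out, and genes outside it (Gc, Pou3f4, Slc7a2, Fto, Mmp2, Lpcat2 and Slc6a19) were named after their values were seen. The members and lists were chosen with earlier results of these data known.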

Additional observations from a re-analysis of the deposited data

How the results depend on the processing

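Among 695 alternative values for single genes, 631 kept their direction and their side of the threshold, 47 lost a call, 12 gained one and 5 reversed. KO against WT at 25 weeks gave 3 called members under RLE size factors, library size alone, no filter, DESeq2, all 16 libraries and libraries of that age, 4 with pooled controls, 2 with the replicate block, and 0 to 3 when 1 library was left out. With an arm of 1 library, that library is assumed to vary like the others. Library size alone shifted the median of all genes from 0.03 to 0.27 and the split of calls from 856 higher and 378 lower to 805 and 79. In all genes the calls of this comparison ranged from 392 without KO replicate 3 to 2649 with pooled controls, and those at 8 weeks from 0 with the block to 503 with pooled controls. DESeq2 called 1 member where edgeR called 0 in the difference of ages, in WT with age, in KO with age and in HET at 8 weeks. No filter gave 1 in KO with age, and HET at 8 weeks ranged from 0 to 1 with 1 library left out.

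The reversals were all of uncalled values. Irx5 at 8 weeks was -0.97 with pooled controls. With 1 library left out, Irx3 ranged from -0.48 to 1.20 for the difference of ages and from -0.55 to 1.10 for KO with age, both negative without KO replicate 3 of 25 weeks, and from -0.34 to 0.42 for WT with age, positive without WT replicate 3 of 25 (0.02) or of 8 weeks. The cause was not tested. The block, nested in age, gave no value for 25 against 8 weeks within WT or within KO, and changed no other member's call. For the difference of the KO effect between the ages it gave 1.85 for Irx1 and 1.42 for Irx2 (edgeR, adjusted p = 0.357 and 0.376). Outside KO of 25 weeks Irx4, Irx5 and Irx6 had 0 to 10 reads per library.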
